A study of Homo sapiens with 6 samples.

Results

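The SH3BGRL family comprises 4 human genes, SH3BGRL, SH3BGRL2, SH3BGRL3 and SH3BGR, and each was measured by 1 transcript cluster, a set of probes that the array summarises into 1 value for a gene. They are 4 of the 22376 genes represented here by a cluster with a single gene symbol. The members were chosen by name, with the values of SH3BGRL already known: it was among the genes that differed most between the groups, so its values in that comparison are given as a description. The values come from 6 Affymetrix microarrays of total RNA from untreated subclones of DLD-1, a cell line established from a human colorectal adenocarcinoma. The cells had been cultured for 96 h inside 3D gels of type I collagen (1 mg/ml). The groups were Δα-Cat (3 arrays) and α-Cat (3 arrays). The labels do not spell out these names, how the subclones were made, whether a group was 1 clone or several, or whether its arrays stand for independent cultures. The p-values therefore cover the spread among these arrays and no more, and that spread may be technical.

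The family takes its name from SH3BGR, the gene for an SH3-domain-binding, glutamic-acid-rich protein that is known from heart and skeletal muscle. Its relatives encode small cytosolic proteins with the fold of thioredoxin and glutaredoxin. They lack the cysteine pair with which those enzymes reduce disulfides, so they are regarded as adaptors rather than as oxidoreductases. SH3BGRL and SH3BGRL2 carry a proline-rich stretch of the kind that SH3 domains bind, and SH3BGRL3 lacks it. Published work in other cancer cells links SH3BGRL to the receptor ERBB2, the adaptor GRB2 and the kinase SRC, and SH3BGRL3 to EGFR and the myosin MYO1C.

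The stretch upstream of SH3BGRL is shown because a neighbouring gene, HMGN5, starts just before its first base on the opposite strand and also differed between the groups. In the RefSeq promoter table (GRCh38.p14) 188 bases lie between the start of SH3BGRL on the plus strand and that of HMGN5 on the minus strand, at chrX:81201914-81202101. The same length upstream of SH3BGRL2 (its first listed start, chr6:79537445-79537632, plus strand) and of SH3BGRL3 (chr1:26279898-26280085, plus strand) is shown for contrast. Of the 4 members, 3 had an entry in the table; SH3BGR had none. Each line runs 5′ to 3′ on the plus strand and ends at the base before the start. Capitals mark matches, on either strand, to the ETS core CCGGAAG in SH3BGRL, the CCAAT box CCAAT in SH3BGRL2 and SH3BGRL3, and the GC box GGGCGG in SH3BGRL3, where a GC box and a CCAAT box adjoin.
SH3BGRL: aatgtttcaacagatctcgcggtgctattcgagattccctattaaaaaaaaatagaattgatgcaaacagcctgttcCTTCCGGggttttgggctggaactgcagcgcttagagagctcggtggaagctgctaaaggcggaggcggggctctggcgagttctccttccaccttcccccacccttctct
SH3BGRL2: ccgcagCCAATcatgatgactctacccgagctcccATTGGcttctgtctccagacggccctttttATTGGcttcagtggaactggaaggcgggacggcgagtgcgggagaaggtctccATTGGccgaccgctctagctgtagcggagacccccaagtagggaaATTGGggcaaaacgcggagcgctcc
SH3BGRL3: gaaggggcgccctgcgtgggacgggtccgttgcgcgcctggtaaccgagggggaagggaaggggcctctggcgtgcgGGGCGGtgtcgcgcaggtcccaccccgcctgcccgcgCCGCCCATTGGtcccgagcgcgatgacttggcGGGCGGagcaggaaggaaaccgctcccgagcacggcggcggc

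The members' windows differ in composition. The window between SH3BGRL and HMGN5 is 51.6% G or C, with 9 CpG dinucleotides, against 59.6% and 13 for SH3BGRL2 and 75.5% and 26 for SH3BGRL3. The median over the 35116 windows of that length in the table is 59% with 8 CpG. The SH3BGRL window holds 1 ETS core, from -111 to -105 counted from the start of SH3BGRL, and that motif occurs in 7.51% of all windows. The ETS core was added to the search after the sequence had been read. The printed SH3BGRL2 window holds 5 CCAAT boxes, a motif found at least once in 26.9% of windows and 5 or more times in 0.13%. That cutoff of 5 equals the count in this window. SH3BGRL2 has another listed start, with its window at chr6:79631141-79631328 (plus strand), not printed here. That window is 67.6% G or C, with 15 CpG, and holds 0 CCAAT boxes and 1 GC box. The SH3BGRL3 window holds 3 GC boxes, a motif found in 39.4% of windows, and 1 CCAAT box. Neither the TATA box TATAAA (8.12% of windows), the AP-1 site TGANTCA (5.12%) nor the E-box CACGTG (5.28%) occurs in any of these windows. A match is a description of the letters and does not show that a factor binds there.

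SH3BGRL was higher in Δα-Cat cells. Its log2 level was 5.85, 5.62 and 5.54 in the Δα-Cat arrays, against 4.04, 4.12 and 3.93 in the α-Cat arrays. The groups were far apart: the lowest Δα-Cat array lay 1.42 above the highest α-Cat array. The means were 5.67 ± 0.16 in Δα-Cat and 4.03 ± 0.09 in α-Cat (SD, n = 3 each), a log2 difference of 1.64 (SE 0.09, 95% interval 1.42 to 1.86), or 3.11-fold. Detection calls were not used here, and the 95th percentile of 364 olfactory receptor genes, which are largely silent in epithelium, served as a background level, at 4.41 in Δα-Cat and 4.44 in α-Cat. SH3BGRL lay above it in Δα-Cat and below it in α-Cat, so its level in α-Cat was not shown to exceed background. Set against that background in place of its own α-Cat mean, the Δα-Cat mean of SH3BGRL was 2.35-fold higher, a ratio without an interval. Lying above that level does not by itself show expression. Of 5 measured fibroblast markers, 3 lay above it in each group, among them COL1A1, at 6.15 in Δα-Cat. In the fit over all clusters SH3BGRL was called (limma adjusted p = 0.00212), which is the result that brought the family forward. In RNA from whole cultures, more cells carrying a transcript and more transcript per cell cannot be told apart.

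SH3BGRL2 also had a higher level in every Δα-Cat array, but its difference did not pass the test over all clusters. Its log2 level was 9.13, 9.07 and 8.95 in Δα-Cat, against 8.73, 8.57 and 8.42 in α-Cat. The groups did not overlap, and the gap between them was 0.22. The means were 9.05 ± 0.09 in Δα-Cat and 8.57 ± 0.16 in α-Cat (SD, n = 3 each), a log2 difference of 0.48 (SE 0.09, 95% interval 0.26 to 0.69; limma adjusted p = 0.123), or 1.39-fold. When only clusters with a single symbol were fitted and adjusted, SH3BGRL2 was called (limma adjusted p = 0.0399); that fit called 2.94% of genes. Its level was above background in both groups.

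SH3BGRL3 had overlapping groups. Its log2 level was 7.79, 7.53 and 7.43 in Δα-Cat, against 7.56, 7.56 and 7.33 in α-Cat. Only Δα-Cat replicate 1 stood above all α-Cat arrays. The difference was 0.10 (SE 0.11, 95% interval -0.16 to 0.36; limma adjusted p = 0.867), and without Δα-Cat replicate 1 it was -0.0055. The interval runs in fold terms from 0.894 to 1.28, so a change as large as that of SH3BGRL lies outside it.

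SH3BGR, the muscle gene of the family, lay below the background level in both groups. Its log2 level was 4.29, 4.33 and 4.32 in Δα-Cat, against 4.22, 4.30 and 4.23 in α-Cat. The groups overlapped, and all 6 arrays lay between 4.22 and 4.33. The difference was 0.06 (SE 0.05, 95% interval -0.06 to 0.18; limma adjusted p = 0.812). Of 9 measured markers of heart and skeletal muscle, limma called 0 (1 at an unadjusted p under 0.05, or 11.1% beside 13.1% of all genes), with a median difference of -0.03. In each group 7 of the 9 lay above the background level, while TTN (titin) lay below it in both. TNNC1, a troponin gene with the smallest p of that list, had log2 levels of 9.75 to 9.88 in Δα-Cat, against 9.91 to 10.20 in α-Cat, and its difference of -0.22 did not pass (limma adjusted p = 0.464).

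**Figure D1:**
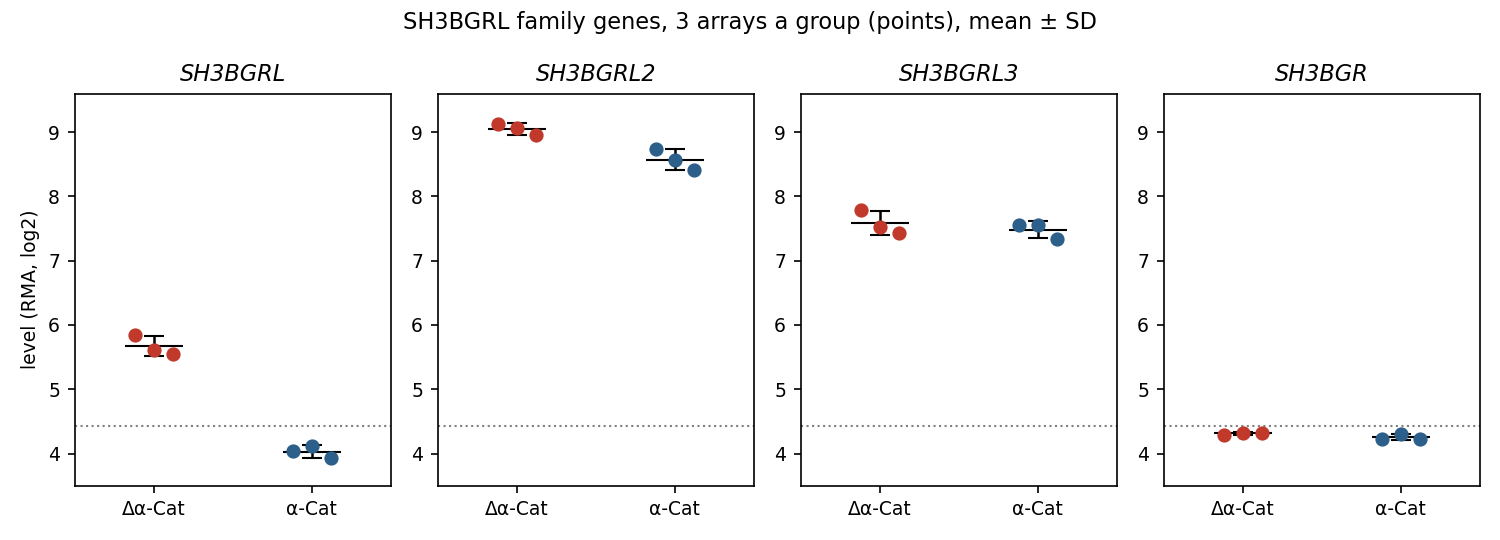
Log2 level (RMA, vertical axis) of each family gene in the 3 Δα-Cat and 3 α-Cat arrays (points), with the mean and SD of each group (bars) and the background level over all arrays at 4.43 (dotted line). The SH3BGRL groups lie on either side of that line, the SH3BGRL2 groups are apart by 0.22, and the other members' groups overlap; levels of different genes are read by different probes and are not set against each other.

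Among the members, 1 of 4 was called, SH3BGRL, where 0.626% of all genes (0.371% higher in Δα-Cat) and 0.342% of all clusters were called; nothing is read from that count, since the comparison was used in choosing the family. The groups did not overlap for 2 of 4 members, against 21.3% of all genes. By size of difference SH3BGRL ranked 9 among 22376 genes and SH3BGRL2 ranked 341, while 68.52% of genes had a smaller difference than SH3BGRL3 and 50.89% a smaller one than SH3BGR. All 4 differences were positive, beside 49.8% of all genes. Nothing is read from that either: SH3BGRL was chosen for its difference, and SH3BGR lay below background in both groups. The difference of SH3BGRL3 was -0.0055 without Δα-Cat replicate 1.

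The shift of SH3BGRL was larger than those of SH3BGRL2 and SH3BGRL3 when the genes were compared within arrays, with SH3BGRL itself below background in α-Cat. The SH3BGRL level minus the SH3BGRL2 level, set to a mean of 0 in α-Cat, was 1.09 to 1.26 in the Δα-Cat arrays, against -0.15 to 0.09 in the α-Cat arrays. SH3BGRL minus SH3BGRL3 was 1.51 to 1.57 in Δα-Cat, against -0.07 to 0.05 in α-Cat. SH3BGR, below background in both groups, was left out of this comparison. These values describe how far the members' differences lie apart, and no test is given because SH3BGRL was chosen for its difference. The shift of SH3BGRL2 over SH3BGRL3 was smaller, at 0.25 to 0.45 in Δα-Cat, against -0.08 to 0.08 in α-Cat.

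Arrays of a group varied more in 3 of these genes than in most genes, and less in SH3BGR. The pooled within-group SD was 0.13 for SH3BGRL, 0.13 for SH3BGRL2 and 0.16 for SH3BGRL3, where the median over all genes was 0.07, and 0.03 for SH3BGR. Δα-Cat replicate 1 was the highest Δα-Cat array and α-Cat replicate 3 the lowest α-Cat array for SH3BGRL, SH3BGRL2 and SH3BGRL3 alike. Between arrays of the same number, the difference was 1.81, 1.496 and 1.61 for SH3BGRL, 0.40, 0.50 and 0.53 for SH3BGRL2, 0.23, -0.03 and 0.10 for SH3BGRL3, and 0.07, 0.02 and 0.09 for SH3BGR (numbers 1, 2 and 3).

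**Figure D2:**
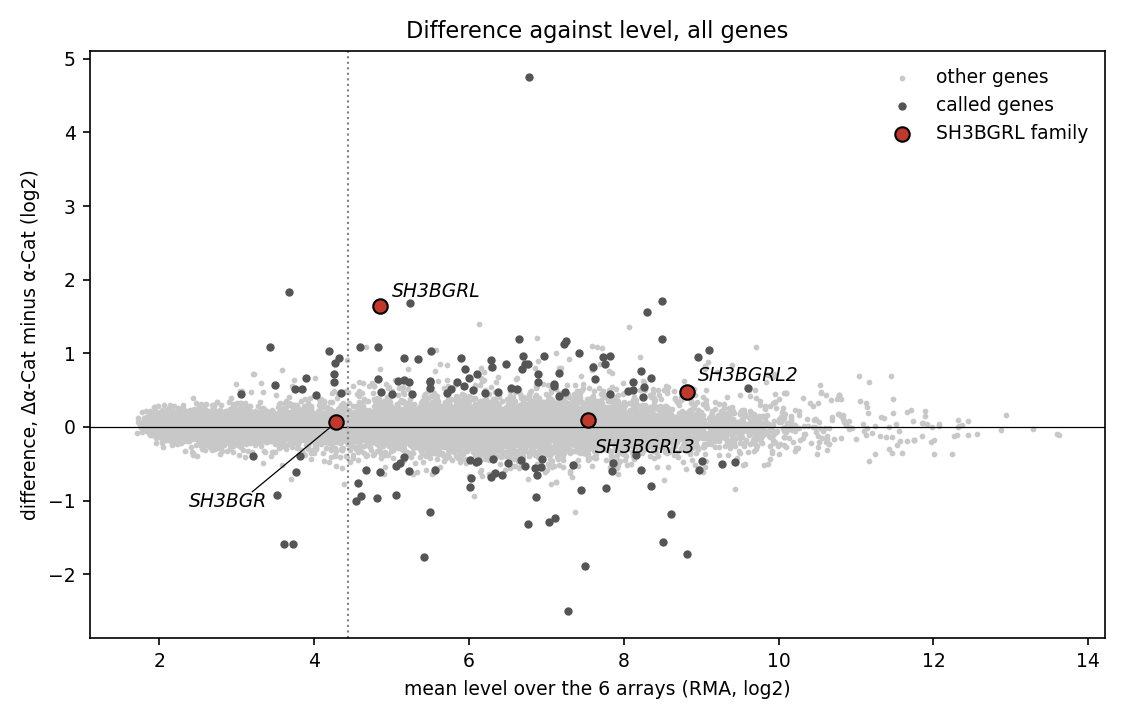
Difference in log2 level, Δα-Cat minus α-Cat (vertical axis), against the mean log2 level over the 6 arrays (horizontal axis) for 22376 genes, with called genes in dark grey, the family in red and the background level as a dotted line. SH3BGRL lies at 1.64 among the largest differences, SH3BGRL2 at 0.48 on the upper edge of the genes of its level, and SH3BGRL3 and SH3BGR at 0.10 and 0.06 within the bulk.

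Leaving out any 1 array changed no call in the family. SH3BGRL was called in all 12 other settings run, with differences from 1.55 to 1.70 and limma adjusted p-values from 0.000433 to 0.0293. SH3BGRL2 kept a positive difference in its 12 settings, from 0.40 to 0.56, and was called in 1 of them. SH3BGRL3 was called in 0 of 12 and SH3BGR in 0 of 11, since SH3BGR drops out when clusters under the background level are removed. The share of all genes called was 0.425% with the replicate block, 0.496% with cyclic loess, 0.42% with median centring, 0.773% with trended and robust eBayes, 2.94% with single-symbol clusters only and 2.13% with clusters above the background level only. It was 0.358%, 0.13% and 0.13% when Δα-Cat replicates 1, 2 and 3 were left out in turn, and 0.0939%, 0.161% and 0.107% when α-Cat replicates 1, 2 and 3 were.

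**Figure D3:**
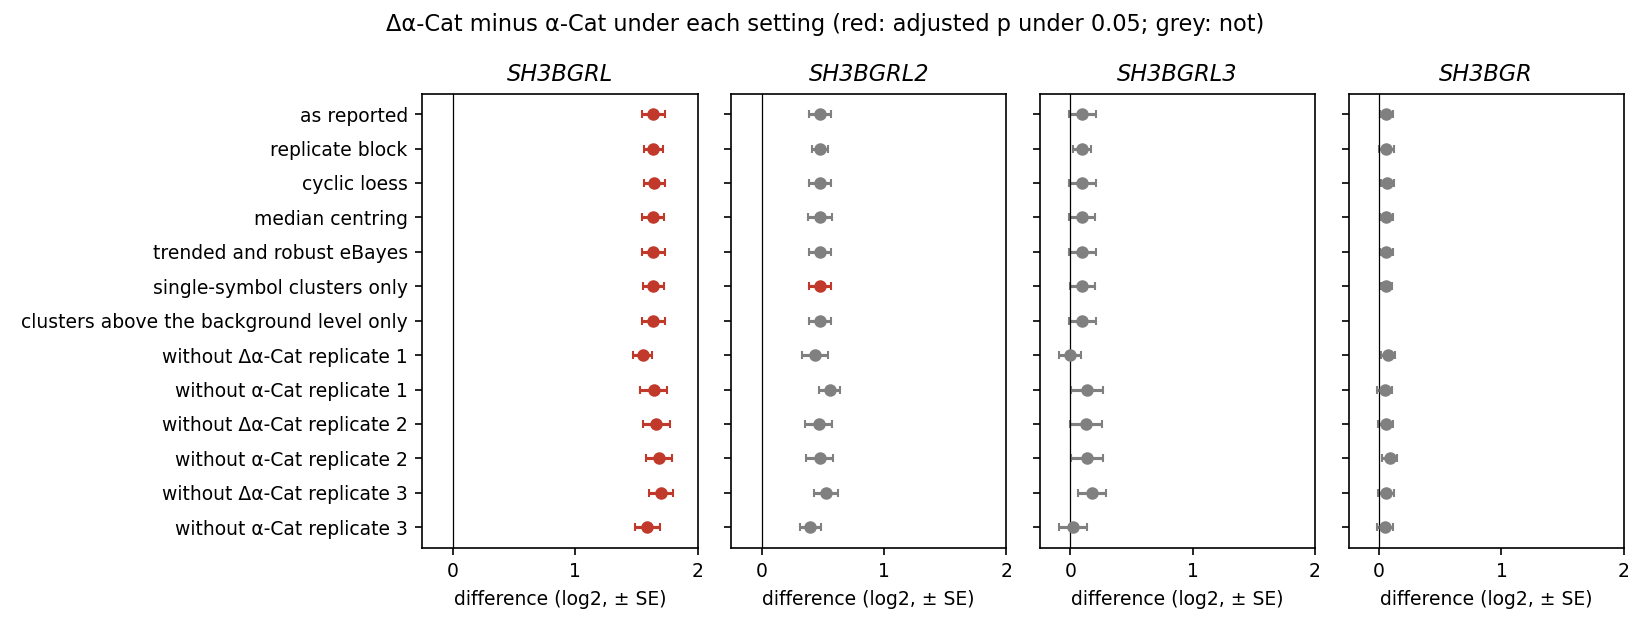
Difference in log2 level, Δα-Cat minus α-Cat, with its SE (horizontal axis), for each family gene under each processing setting and each omission of 1 array (rows), with called values in red. SH3BGRL stays between 1.55 and 1.70 in all rows, SH3BGRL2 is called in 1 row, and SH3BGRL3 and SH3BGR in none.

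HMGN5 and RPS6KA6, which lie near SH3BGRL on the X chromosome, were higher in Δα-Cat cells too. Of the 5 measured genes on each side of SH3BGRL in the RefSeq gene order, 2 of 10 were called, both higher in Δα-Cat. Over all genes 0.626% were called in either direction, and the other 8 neighbours did not pass. HMGN5, which encodes a nucleosome-binding protein and starts 188 bases from SH3BGRL on the other strand, had log2 levels of 4.27, 3.91 and 3.71 in Δα-Cat, against 2.90, 2.84 and 2.91 in α-Cat. Its groups did not overlap, and its difference was 1.08 (SE 0.13, limma adjusted p = 0.0378, and 0.0458 with the replicate block). Both group means of HMGN5, 3.96 in Δα-Cat and 2.88 in α-Cat, lay below the background level, so neither was shown to exceed it. HMGN5 was also called without Δα-Cat replicate 1 (limma adjusted p = 0.0316). It was not called when Δα-Cat replicate 2 (0.169) or 3 (0.0507) was left out, nor when any of α-Cat replicates 1 (0.166), 2 (0.139) and 3 (0.165) was.

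RPS6KA6, the gene for the ribosomal S6 kinase RSK4, is the third measured gene on the other side. Its log2 level was 4.38, 4.67 and 4.70 in Δα-Cat, against 2.78, 2.73 and 2.76 in α-Cat, with no overlap. The difference was 1.83 (SE 0.09, limma adjusted p = 0.00212), and RPS6KA6 was called in every setting that kept it in the fit. Its α-Cat mean lay below background, and its Δα-Cat mean was 1.11-fold that background. Between SH3BGRL and RPS6KA6 lie POU3F4, a transcription factor gene of the inner ear and brain, and CYLC1, a gene of the sperm head. POU3F4 had a difference of -0.03 (limma adjusted p = 0.964) and CYLC1 of 0.01 (limma adjusted p = 0.978), both below background in both groups. On the far side of HMGN5, BRWD3 had a difference of -0.17 (limma adjusted p = 0.379) and ITM2A of 0.06.

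A wider stretch of 31 measured genes was centred on SH3BGRL, with a width chosen after the values had been seen. It held 5 called genes, or 16.1%, where 0.626% of all genes and 1.02% of those on X were called. Nothing is read from that share, since SH3BGRL, chosen for its difference, is among those 5. Besides HMGN5, SH3BGRL and RPS6KA6, which rose, these were POF1B, an actin-binding junction gene, which fell by 1.29 on the log2 scale, and KLHL4, a kelch-like gene, which fell by 1.59 (limma adjusted p = 0.00212 and 0.00235). KLHL4 lay below the background level in Δα-Cat and just above it in α-Cat (means 2.93 and 4.51). Its α-Cat mean was 1.07-fold the background of Δα-Cat. POF1B lay above background in both groups. The called genes of the stretch thus went both ways, and the median difference over its 31 genes was 0.03. The other 26 genes did not pass, APOOL among them with a difference of 0.45 (limma adjusted p = 0.402).

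**Figure D4:**
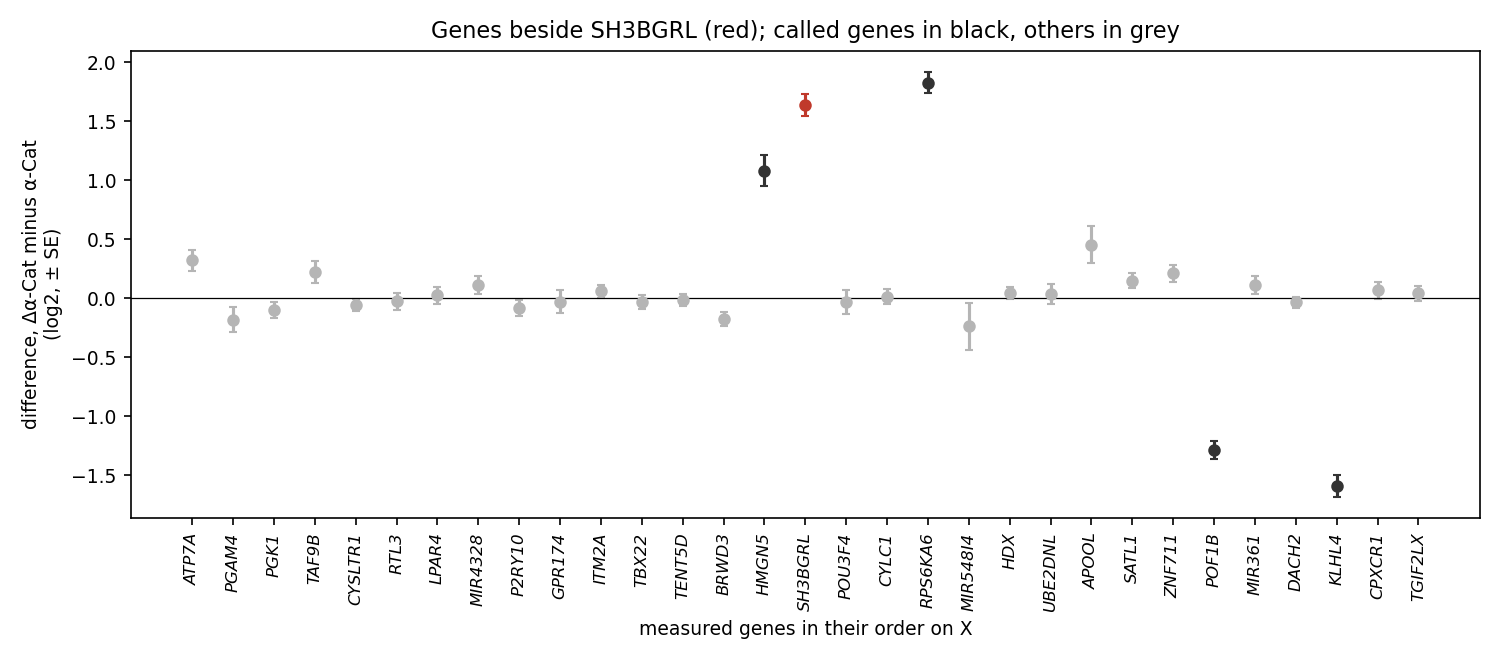
Difference in log2 level, Δα-Cat minus α-Cat, with its SE (vertical axis), for 31 measured genes in their order on the X chromosome (horizontal axis), with SH3BGRL in red, other called genes in black and genes not called in grey. HMGN5, SH3BGRL and RPS6KA6 lie at 1.08, 1.64 and 1.83, POF1B and KLHL4 at -1.29 and -1.59, and the 26 genes not called lie between -0.24 and 0.45.

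Around the other members the single called neighbour was PCP4, beside SH3BGR. Of 10 measured neighbours each, limma called 0 beside SH3BGRL2 and 0 beside SH3BGRL3, with 2 and 0 at an unadjusted p under 0.05. Over all genes 0.626% were called and 13.1% had an unadjusted p under 0.05, so with 10 genes each nothing is read from these counts. The genes next to SH3BGRL2 are LCA5 (difference -0.04) and ELOVL4 (0.03), and those next to SH3BGRL3 are CEP85 (-0.13) and UBXN11 (-0.06). Beside SH3BGR, PCP4, the gene for a small calmodulin-binding protein, rose by 0.96 (SE 0.13, limma adjusted p = 0.0497; with the replicate block 0.055). PCP4 had log2 levels averaging 7.17 in Δα-Cat and 6.22 in α-Cat. It was not called with cyclic loess or median centring (limma adjusted p = 0.0571 and 0.0685), nor in 5 of the 6 fits that left out 1 array (0.148 to 0.209). Without Δα-Cat replicate 1 it was called (limma adjusted p = 0.0308). The genes next to SH3BGR, LCA5L and B3GALT5-AS1, had differences of 0.02 and -0.08.

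Of 22 measured genes listed as thioredoxins, glutaredoxins, their reductases and their regulator TXNIP, limma called 0, where 0.626% of all genes were called. In that list 4 genes had an unadjusted p under 0.05, a share of 18.2% beside 13.1% of all genes. Here 9 differences were positive and 13 negative, and the median was -0.03, beside -0.0005 over all genes. TXNIP, which binds and inhibits thioredoxin, had the smallest p of the list, with log2 levels of 9.11, 9.52 and 9.96 in Δα-Cat, against 8.56, 8.61 and 8.76 in α-Cat. Its groups did not overlap, yet its difference of 0.89 (SE 0.20, limma adjusted p = 0.163) did not pass. GLRX3, a glutaredoxin of iron-sulfur cluster handling, had a difference of -0.29 (SE 0.08, limma adjusted p = 0.296). TXN, the main cytosolic thioredoxin, averaged 9.65 in Δα-Cat and 9.68 in α-Cat, and GLRX, the main cytosolic glutaredoxin, 4.39 in Δα-Cat and 4.44 in α-Cat. GLRX lay below the background level in Δα-Cat and barely above it in α-Cat, so little is read from its values.

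Among 5 measured peroxiredoxins, peroxidases that thioredoxin serves, limma called 0, where 0.626% of all genes were called. Of the 5, 2 had an unadjusted p under 0.05, a share of 40.0% beside 13.1% of all genes, and the median difference was -0.01. PRDX4, the peroxiredoxin of the endoplasmic reticulum, had log2 levels of 6.48, 6.52 and 6.41 in Δα-Cat, against 6.96, 6.90 and 6.84 in α-Cat, with no overlap. Its difference of -0.43 (SE 0.06, limma adjusted p = 0.0521) missed the threshold, and PRDX3, the mitochondrial one, had -0.26 (SE 0.11, limma adjusted p = 0.501).

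Of 11 genes with an EVH1 domain, a module that binds proline-rich stretches, limma called 0 (2 at an unadjusted p under 0.05, or 18.2% beside 13.1% of all genes), where 0.626% of all genes were called, and the median difference was -0.04. ENAH, an actin regulator of the Ena/VASP family, had a difference of -0.23 (SE 0.06, limma adjusted p = 0.213) and SPRED2, an inhibitor of MAPK signalling, of 0.16 (SE 0.07, limma adjusted p = 0.507). Of 9 measured receptor kinase, adaptor, Src and myosin genes linked to the family in published work, limma called 0 (1 at an unadjusted p under 0.05, or 11.1%), and the median was 0.02. GRB2 averaged 8.10 in Δα-Cat and 7.99 in α-Cat (limma adjusted p = 0.613), SRC 6.62 in Δα-Cat and 6.63 in α-Cat, EGFR 7.65 in Δα-Cat and 7.59 in α-Cat, and MYO1C 9.28 in Δα-Cat and 9.37 in α-Cat. PTK2, the focal adhesion kinase, had a difference of 0.39 (SE 0.06, limma adjusted p = 0.0577). ERBB2 was not analysed here. PRDX4 and PTK2 were called in each of 3 other settings: with trended and robust eBayes (limma adjusted p = 0.0401 and 0.041), with single-symbol clusters only (0.013 and 0.0131) and with clusters above the background level only (0.0238 and 0.0244).

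**Figure D5:**
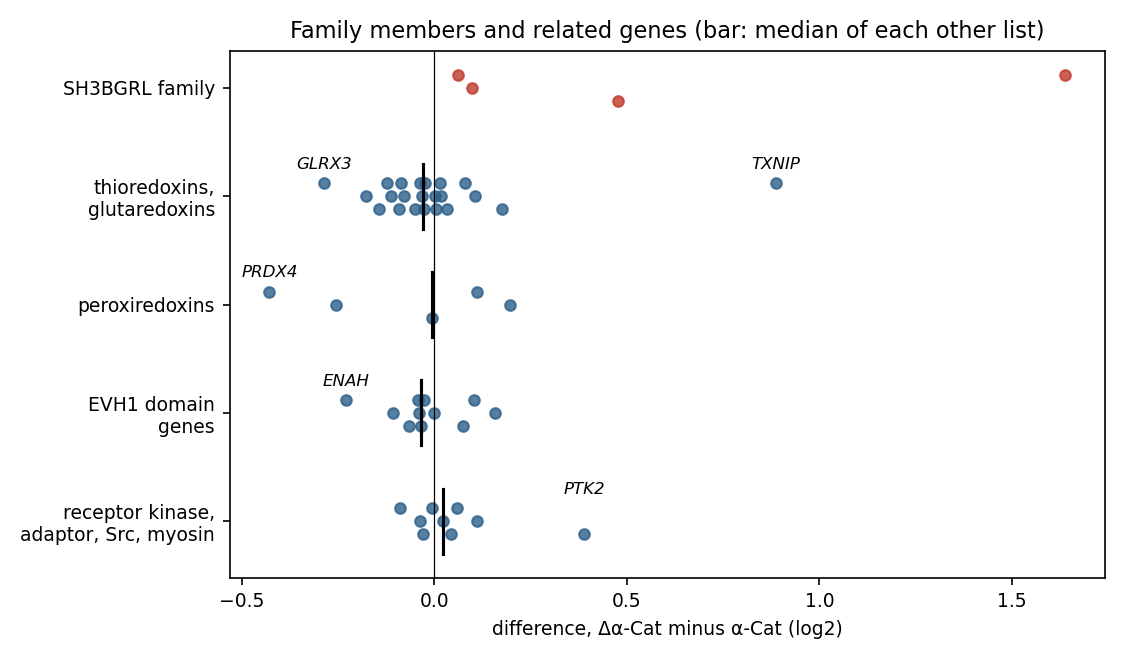
Difference in log2 level, Δα-Cat minus α-Cat (horizontal axis), of each measured gene (points) in the SH3BGRL family (red) and in 4 lists of related genes (blue), with the median of each list as a bar. SH3BGRL, chosen for its difference, lies at 1.64, beyond every gene of the lists, so nothing is read from its place. TXNIP at 0.89 is the highest gene of the lists, and the list medians lie between -0.04 and 0.02.

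The genes nearest to SH3BGRL in their pattern over the arrays were called genes of other families. Over 17022 other protein-coding genes, likeness was measured as the root mean square distance between mean-centred log2 levels over the 6 arrays. The nearest were HSPH1, a cytosolic heat shock protein gene (distance 0.13), SLPI, a secreted protease inhibitor gene (0.13), KLK7, a secreted serine protease gene (0.15), RPS6KA6 (0.22), S100A4, a calcium-binding protein gene (0.26), and NFIB, a transcription factor gene (0.26). HSPH1 stood at 9.43, 9.46 and 9.15 in Δα-Cat, against 7.72, 7.54 and 7.64 in α-Cat, a difference of 1.71 beside 1.64 for SH3BGRL. All 6 rose; NFIB was not called when Δα-Cat replicate 2 or α-Cat replicate 1 or 3 was left out (limma adjusted p = 0.0503, 0.0667 and 0.0634), and the other 5 were called in every fit that left out 1 array. SH3BGRL2 was number 138 in that order, at a distance of 0.59. With 2 groups of 3 arrays the measure reflects mainly the step between the groups. Genes near SH3BGRL by this measure were therefore bound to rise, and nothing is read from their calls.

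As a check of the labels, CTNNA1, the gene of αE-catenin, had log2 levels of 6.55, 6.52 and 6.41 in Δα-Cat, against 7.79, 7.68 and 7.71 in α-Cat (difference -1.23, limma adjusted p = 0.00212). Array medians ranged from 4.02 to 4.07. Of 10 markers of colorectal epithelium, 10 lay above background in Δα-Cat and 9 in α-Cat, and the exception was KRT20, a keratin of differentiated colonocytes, the only called marker of the list. Of these 10 markers 5 had an unadjusted p under 0.05 (KRT20, KRT8, CDH1, KRT19 and VIL1), against 13.1% of all genes. The groups did not overlap for 6 of 10, against 21.3% of all genes. The summed log2 level of the 10 was 86.8 to 88.4 in Δα-Cat, against 82.1 to 83.1 in α-Cat. KRT20 had a difference of 4.75 and the other 9 markers lay between -0.14 and 0.26, so the gap between the sums is mostly that of KRT20. Of 5 measured markers each of fibroblasts, leukocytes and endothelium, limma called 0 (0, 2 and 0 at an unadjusted p under 0.05, the 2 being 40.0% of the leukocyte markers), and 3 of each 5 lay above background in each group. Their summed levels in Δα-Cat were 20.8 to 21.2, 20.9 to 22.2 and 20.5 to 21.3. In α-Cat the sums were 20.77 to 20.80, 21.1 to 21.5 and 21.0 to 21.4. Inside the leukocyte sum, opposite differences offset each other. CD14 had a difference of -0.64 with no overlap (limma adjusted p = 0.12), and CD68 one of 0.66 with overlap (limma adjusted p = 0.506).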

How the data were processed

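Levels were measured on 6 arrays, 3 labelled Δα-Cat and 3 α-Cat. The authors used Affymetrix Expression Console with RMA, which corrects background, normalizes quantiles and summarises probes, per the submitters' processing notes. Versions, genome build and annotation release are not given in the sources used here. Nothing states the scale of the deposited values, which was read as log2, since RMA gives log2 values and the rows kept lie between 1.26 and 14.24. Of 70513 deposited rows, 4987 hold values without a decimal point, up to 999, so the columns as a whole were treated as a score and those rows were left out, which left 65526 clusters. A second table was not used, because none of its 6 value columns is named like a sample and its decimal points are damaged. No detection calls were given, and the number of arrays limits the precision.

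Genes were named from the platform annotation, with symbols updated through RefSeq (GRCh38.p14), which also gave gene order. Of the clusters, 22686 had 1 symbol, 1385 several and 41455 none; where a gene had more than 1 such cluster, the one with the highest mean stood for it. Differences were fitted with limma 3.58.1 in R 4.3.3 (lmFit, eBayes) without covariates and adjusted by Benjamini-Hochberg over all clusters; a call is an adjusted p under 0.05. The fit was tested on simulated data. After removal of group means, same-numbered arrays correlated at 0.219, 0.214 and 0.128, each above 0.1, so a fit with the replicate block was run beside the main one; what a number stands for is not given in the labels. Tables were made in Python 3.11.15 (pandas 2.3.3, numpy 2.4.6) and plots with matplotlib 3.10.9.

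The members, lists, markers and naming rule were chosen with earlier results of these data known. The rule names the 4 members, CTNNA1, the called genes of each list or the 2 with the smallest p, the called and the nearest neighbours, and the 6 genes most like SH3BGRL. Outside it, BRWD3, ITM2A, CYLC1, POF1B, KLHL4, APOOL, TXN, GLRX, SRC, EGFR, MYO1C, TNNC1, TTN, KRT20, KRT8, CDH1, KRT19, VIL1, CD14, CD68, VGLL1, NOX1, CLDN2 and PHF8 were named after their values had been seen.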

Additional observations from a re-analysis of the deposited data

How the results depend on the processing

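SH3BGRL kept its direction and its call in all 12 alternatives run on it: the replicate block (adjusted p = 0.00691), cyclic loess, median centring, trended and robust eBayes, single-symbol clusters only, clusters above background only, and the omission of each array in turn (1.55 to 1.70). For SH3BGRL2 the difference was 0.48 and called with single-symbol clusters only, a fit that tests fewer clusters; with the replicate block its adjusted p was 0.0751, and without 1 array it ranged from 0.40 to 0.56 and was not called. SH3BGRL3 ranged from -0.0055 (without Δα-Cat replicate 1, a turn in direction) to 0.17 without 1 array, and POU3F4 from -0.12 to 0.0589 (the highest without α-Cat replicate 1, a turn in direction); the cause was not tested. SH3BGR ranged from 0.04 to 0.09 without 1 array. Over all clusters 224 were called, 156 with the replicate block, 662 with single-symbol clusters only, 483 with clusters above background only, and 29 to 120 without 1 array. Of the 10 neighbours of SH3BGRL, 0 were called with clusters above background only, which leaves HMGN5 and RPS6KA6 out, and 1 to 2 without 1 array. Of the genes of the 4 lists, 2 were called with trended and robust eBayes, 2 with single-symbol clusters only and 2 with clusters above background only. The replicate block ended the calls of PCP4, CLDN2, VGLL1 and PHF8 and changed no other call among the genes recomputed. The counts of neighbours and list genes, and the other named genes, were added to the alternatives after seeing the data; every gene of the family has 1 single-symbol cluster, so the planned mean over several was not run.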

Other observations

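On the X chromosome as a whole, 9 of 882 measured genes were called (1.02%), 4 higher and 5 lower, against 131 of 21494 genes elsewhere (0.609%). Of those 9, the 5 from HMGN5 to KLHL4 lie within a run of 15 measured genes that starts beside SH3BGRL. Those 5 include SH3BGRL, which was chosen for its difference. The share on X rests largely on that run and is not read as an excess over the chromosome. The other 4 lie elsewhere on X: VGLL1, a cofactor of TEAD transcription factors, rose by 0.87, while NOX1, a colonic NADPH oxidase, fell by 1.01, CLDN2, a pore-forming claudin, fell by 0.58, and PHF8, a histone demethylase, fell by 0.48 (limma adjusted p = 0.0409, 0.046, 0.0162 and 0.0338). NOX1 in Δα-Cat and VGLL1 in α-Cat lay below the background level. The α-Cat mean of NOX1 was 1.54-fold the background of Δα-Cat. The Δα-Cat mean of VGLL1 was 1.202-fold the background of α-Cat. With the replicate block VGLL1, CLDN2 and PHF8 were not called (0.0563, 0.0524 and 0.0751), and with median centring NOX1 was not (0.052). Without 1 array, these 4 lost their calls in each fit (limma adjusted p from 0.0527 to 0.195) except CLDN2 without Δα-Cat replicate 1 and VGLL1 without Δα-Cat replicate 2. The run was marked out after the values had been seen and was not tested.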
